A study of Mus musculus with 2 samples.

Results

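Immediate early genes are switched on within minutes of a stimulus from factors already present in the cell, and most encode regulators of later genes. The 9 genes described here are Fos, Fosb, Jun, Junb and Jund, which encode subunits of the AP-1 transcription factor, the zinc finger factor gene Egr1, the orphan nuclear receptor genes Nr4a1 and Nr4a3, and Btg2, whose product restrains cell division and takes part in mRNA decay. Their induction runs through MAP kinases and calcium, which act on factors bound to the cAMP response element (CRE) and the serum response element. In neurons they are induced by activity and by injury, and Jun is a well known marker of damaged retinal ganglion cells. The genes were chosen by name, with the gene annotation of the peaks below already known, and their peaks are every peak that the authors assigned to them: 10 of the 4789 peaks in the lists, at 7 of the 9 genes.

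The lists come from CUT&Tag, which uses an antibody on chromatin to bring the Tn5 transposase to bound sites, where it inserts adapters into the DNA. The antibody was raised against Rac1, a small GTPase of the actin cytoskeleton, and the purpose stated for the series was to find genes and transcription factors related to Rac1. There were 2 libraries of retinal nuclei, 1 from mice with chronic ocular hypertension (COH) for 1 week, a glaucoma model, and 1 from untreated control mice. All mice were wild-type C57BL/6, 7 weeks old, and the labels do not say how many animals or retinas went into a library. With 1 library per group no difference between COH and control could be tested, and no p-value is given. The COH list holds 1711 peaks and the control list 3078, and no list made with a control antibody was used here. The number of reads is unknown. A peak is a site past the peak caller's threshold and no measure of transcription, and a missing peak does not show that a gene was free of signal. None of 5 rod markers and none of 5 ganglion cell markers was assigned a peak in either list. Of 5 Müller glia markers Aqp4 was assigned one in COH, at -78.43 kb from its start, and Glul a promoter peak in control. Over all protein-coding genes 5.38% had a COH peak and 10.8% a control peak, so counts out of 5 say little.

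The 250 bases before the transcription start of 3 members are shown because peaks of these genes were annotated within 1000 bp of a start, or in the promoter, and because of the motifs they hold. They are RefSeq sequences of the build GRCm38.p6, written 5′ to 3′ and ending at the base before the start. Capitals mark the CRE core TGACG on either strand and the TATA box TATAAA. The Fos window lies on the forward strand of chromosome 12, at chr12:85473640-85473889. That of Nr4a3 lies on the forward strand of chromosome 4, at chr4:48045055-48045304, and that of Jund on the forward strand of chromosome 8, at chr8:70697489-70697738.
Fos: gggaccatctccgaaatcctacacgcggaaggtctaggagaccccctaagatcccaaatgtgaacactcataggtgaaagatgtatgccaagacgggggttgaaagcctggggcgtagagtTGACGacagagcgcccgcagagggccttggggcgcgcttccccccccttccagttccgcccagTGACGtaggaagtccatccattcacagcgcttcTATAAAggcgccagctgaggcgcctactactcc
Nr4a3: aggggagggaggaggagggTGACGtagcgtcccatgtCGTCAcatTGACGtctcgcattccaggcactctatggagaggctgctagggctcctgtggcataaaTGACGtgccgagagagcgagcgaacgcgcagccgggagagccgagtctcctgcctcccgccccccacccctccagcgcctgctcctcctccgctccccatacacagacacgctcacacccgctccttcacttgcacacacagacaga
Jund: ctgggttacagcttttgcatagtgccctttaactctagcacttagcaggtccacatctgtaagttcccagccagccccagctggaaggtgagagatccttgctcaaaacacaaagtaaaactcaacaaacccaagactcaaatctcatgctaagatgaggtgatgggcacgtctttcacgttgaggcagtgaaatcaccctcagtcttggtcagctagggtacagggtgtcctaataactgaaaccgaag

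The Fos window held the CRE core at -129 and at -66 bp from the start and a TATA box at -33 bp. In Nr4a3 the core stood at -231, -213, -205 and -147 bp, and in the Jund window there was none. The lists give Jund a length of 1667 bp and RefSeq 2878 bp. The Jund window may therefore not be the sequence at its peaks, which was not tested, and its lack of motifs says nothing about them. For Nr4a3 the start in the lists, 48045153, falls by number inside the window, which may thus not end at that start. Whether the Fos and Nr4a3 windows hold sequence of their peaks was not tested either, so their motifs are not placed in the peaks. Windows were at hand for 8 members, all but Egr1, and motifs were sought on both strands. Of the 8, 6 held the core, namely Btg2, Fos, Fosb, Junb, Nr4a1 and Nr4a3, against 17.8% of all 32851 promoter windows. The core was added to the motifs after these windows had been seen, so nothing is read from this difference. The full palindrome TGACGTCA, which contains the core on both strands, was found in 1 member, Btg2, at -166 bp, and in 1.55% of all windows. The GC box GGGCGG was present in 6 members, all but Junb and Jund, and in 32.7% of all windows. Neither the AP-1 site TGACTCA nor the CArG box of the serum response element was found in a member window, and these occurred in 4.46% and 1.47% of all windows. The windows hold only 250 bases and Egr1 has none, so this does not show that the genes lack these sites. The member windows had a median GC content of 65.0%, against 52.4% for all windows, and what base composition contributes to the motif counts was not tested. Gene starts in the peak lists are not those of GRCm38.p6, so the distance between a motif and a peak is not given. All coordinates below are those of the lists, and their build is uncertain. According to the submitters' processing notes it would be mm9. Of 3175 genes matched by symbol to GRCm38.p6, 3082 started more than 100 bp from the start there, which includes 6 of the 7 members that carry peaks. The lists were compared neither with mm9 nor with a build later than GRCm38.p6, so the coordinates should not be read as mm9 without such a check.

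In COH 5 of the 9 genes had a peak, Egr1, Jund, Nr4a3, Fosb and Nr4a1, and in control also 5, Egr1, Jund, Nr4a3, Fos and Btg2. Over all protein-coding genes, 5.38% had a COH peak and 10.8% a control peak. Egr1, Jund and Nr4a3 were named in both lists, as were 3.53% of protein-coding genes. Since the genes were taken up with these peaks known, nothing is read from these shares. Each gene had 1 peak per list, and for Jun and Junb there was none. Within 1000 bp of the start lay 3 of the 5 COH member peaks and 3 of the 5 control member peaks, where 51.1% of all COH peaks and 61.6% of all control peaks lay. An overlap of 1 bp or more with the other list was found for 2 of the 5 COH member peaks and 2 of the 5 control member peaks, the sites at Egr1 and Jund. The overlapping share was 61.8% for the whole COH list and 34.3% for the whole control list.

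**Figure D1:**
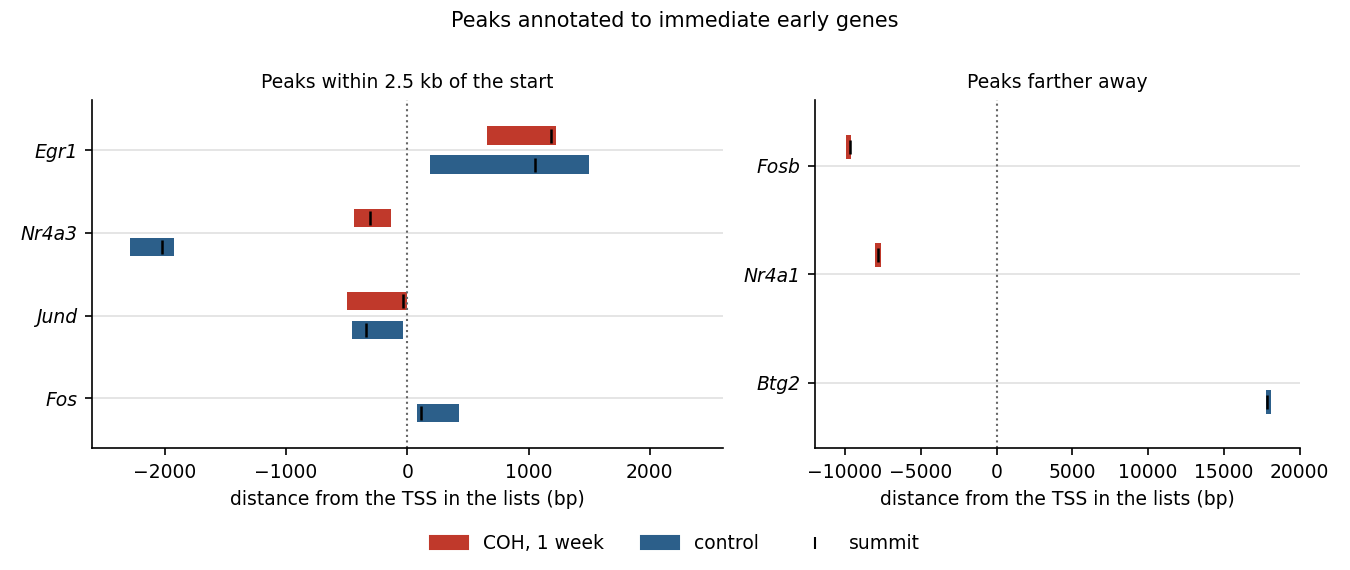
Position of the 10 member peaks relative to the transcription start site that the lists give for each gene, in bp, with negative values upstream. Bars are peaks, COH above control, and ticks are summits. The Egr1 and Jund peaks of the 2 libraries overlap, those of Nr4a3 are 1488 bp apart, and the peaks of Fosb, Nr4a1 and Btg2 lie well outside the range of the left panel.

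Egr1 encodes a zinc finger transcription factor that is among the first genes induced in stimulated neurons. In COH its peak spanned 571 bp at chr18:34993534-34994104, with a pileup (the authors' signal height) of 19. Its fold enrichment over the caller's background was 3.99 and its -log10 q was 4.13. In control it spanned 1305 bp at chr18:34993067-34994371 and reached a pileup of 33. Its fold was 4.68 and its -log10 q 9.82. The COH peak was the narrower and lay wholly within the control peak, of which it covered 43.8%. Both were annotated to the 5′ UTR, the gene running from 34992876 to 34998037 on the forward strand in the lists (ENSMUSG00000038418). The COH peak began 658 bp and the control peak 191 bp past the start of the gene, and their summits, at 1186 and 1052 bp, were 134 bp apart. At 1305 bp the control peak ranked 27 of 3078 by length, and the COH peak ranked 319 of 1711.

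Jund encodes an AP-1 subunit that, unlike most members, is present at a steady level in many resting cells. Its COH peak, 492 bp at chr8:71151105-71151596, reached a pileup of 25, with a fold of 4.44 and 6.68 for the -log10 q. Its control peak, 419 bp at chr8:71151145-71151563, reached a pileup of 34, with a fold of 4.41 and 9.35 for the -log10 q. The 2 folds differed by 0.03, the control peak lay wholly within the COH peak, and it covered 85.2% of it. Both were annotated as promoter peaks, just upstream of the start that the lists give the gene. In the lists Jund runs from 71151599 to 71153265 on the forward strand (ENSMUSG00000071076). It is 1667 bp long there and 2878 bp in RefSeq, so the place of the peaks depends on the gene model. The COH peak ended 3 bp and the control peak 36 bp before the start. The summits stood at -38 bp in COH and -344 bp in control, 306 bp apart.

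The pileup at both shared sites was lower in COH than in control, by a ratio of 0.576 at Egr1 and 0.735 at Jund. Most overlapping sites of the lists had a ratio below 1 as well: over all 1058 pairs its median was 0.851, with quartiles of 0.714 and 1. A lower ratio than that of Egr1 was seen in 8.32% of pairs, and a lower one than that of Jund in 28.7%. The fold in COH minus that in control was -0.69 at Egr1 and 0.03 at Jund, against a median of -0.12 and quartiles of -1.12 and 0.65 over all pairs. Both member values of the fold difference thus lay between the quartiles of all pairs. For the distance between the 2 summits the median over all pairs was 71 bp. It was smaller than the 134 bp of Egr1 in 67.9% of pairs and smaller than the 306 bp of Jund in 91.1%. The scaling of the pileup is not stated, so part of a ratio below 1 may belong to the libraries, which was not tested.

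Nr4a3, which encodes an orphan nuclear receptor that binds DNA without a known ligand, was named in both lists through different sites. The COH peak lay at chr4:48044714-48045019, from -439 to -134 bp of the start, and was annotated to the promoter within 1 kb. Its pileup was 15, its fold 4.72 and its -log10 q 4.36. The control peak lay at chr4:48042864-48043225, from -2289 to -1928 bp of the start, in the promoter at 1 to 2 kb. Its pileup was 25, its fold 4.92 and its -log10 q 7.92. A gap of 1488 bp separated the peaks, and the summits were 1716 bp apart. The gene runs from 48045153 to 48086447 on the forward strand in the lists (ENSMUSG00000028341).

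Fosb and Nr4a1 carried a peak in COH and none in control, at sites the authors classed as distal intergenic. Fosb encodes an AP-1 subunit whose truncated form accumulates under repeated stimulation. Its peak, at chr7:19053553-19053926, lay upstream, at -9577 bp from the start of the gene, which is on the reverse strand (19036621 to 19043976, ENSMUSG00000003545). Its pileup was 18, its fold 5.85 and its -log10 q 7.18, and it was the member peak of highest fold in either list. The nearest control peak, at the promoter of Opa3, was 90.9 kb away. Nr4a1 encodes the receptor known as Nur77. Its peak, at chr15:101144113-101144496, lay at -7654 bp from the start (101152150 to 101172676, forward strand, ENSMUSG00000023034). Its pileup was 15, its fold 4.60 and its -log10 q 4.17. The nearest control peak was 199.1 kb away, assigned to Tmdd1.

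Fos and Btg2 carried a peak in control and none in COH. Fos encodes the partner of the Jun proteins in AP-1 and is the classic marker of recently active neurons. Its control peak, at chr12:85520747-85521092, lay in the 5′ UTR from 83 to 428 bp past the start (85520664 to 85524047, forward strand, ENSMUSG00000021250). The pileup was 17, the fold 3.83 and the -log10 q 3.59, and it had the lowest fold and the lowest q score of the 10. The nearest COH peak was 1252 kb away, assigned to Angel1. The control peak of Btg2, at chr1:133988749-133989076, was distal intergenic. The gene lies on the reverse strand (134002908 to 134006858, ENSMUSG00000020423), and the peak began 17782 bp past its start and 13832 bp past its 3′ end. Its pileup was 22, its fold 4.25 and its -log10 q 5.60, and the nearest COH peak, assigned to Ppfia4, was 283 kb away.

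Many peaks of like fold were also found in 1 library only. Of the 483 control peaks with a fold within 0.5 of that of Fos, 80 overlapped a COH peak, or 16.6% (exact Clopper-Pearson 95% interval 13.4 to 20.2). For Btg2 the share among control peaks of like fold was 16.1% (13.7 to 18.7), 142 of 882. For Fosb, 225 of 363 COH peaks of like fold overlapped a control peak, or 62.0% (56.8 to 67.0), and for Nr4a1 228 of 530, or 43.0% (38.8 to 47.4). A control peak with a fold like that of Fos or Btg2 thus mostly had no COH partner. Likewise, a COH peak with a fold like that of Nr4a1 mostly had no control partner. A COH peak with a fold like that of Fosb mostly had one, at a share close to the 61.8% of the whole COH list. Peaks of like pileup or like -log10 q were not compared. For the whole control list the share was 34.3%. The lists differ in size, with 1711 COH and 3078 control peaks, so shares of COH peaks are not set against shares of control peaks. The intervals given above cover counting error only. For Egr1 and Jund, which did overlap, the shares among peaks of like fold were 36.7% and 39.3% in COH and 19.5% and 18.3% in control.

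Most member peaks were of low fold within their lists. Their pileups lay on both sides of the list's median in COH and at or above it in control. The fold of 4 of the 5 COH member peaks and of all 5 control member peaks lay below the median of all peaks, 5.45 in COH and 5.24 in control. The member folds spanned 3.99 to 5.85 in COH and 3.83 to 4.92 in control, and their medians were 4.60 and 4.41. The pileup of 3 COH member peaks was above the list's median of 16, and that of 4 control member peaks above the median of 17, with Fos at 17. The COH peaks of Nr4a1 and Nr4a3 had a pileup of 15, and 37.0% of COH peaks had a lower one. At Jund 77.6% of COH peaks and 91.0% of control peaks had a lower pileup, while 18.0% and 19.8% had a lower fold. At Egr1 the lower pileups were 61.3% and 90.2%, and the lower folds 7.13% and 30.7%.

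**Figure D2:**
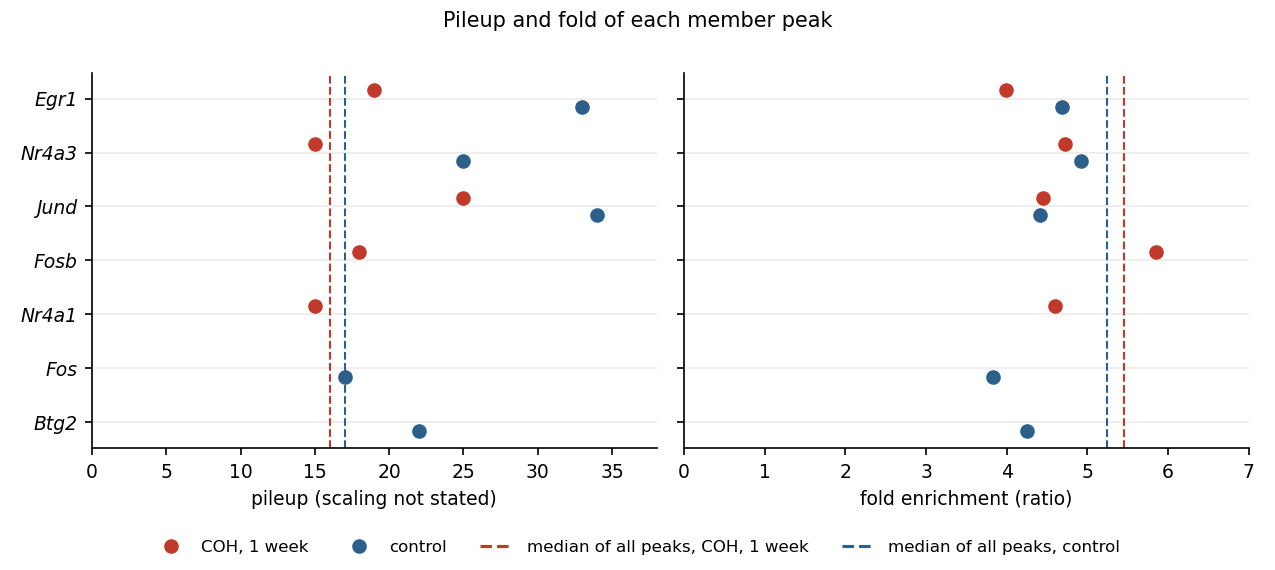
Pileup (left, scaling not stated) and fold enrichment (right, a ratio) of each member peak, COH points above control points. Dashed lines are the medians of all peaks of each list: 9 of the 10 member folds lie below their list's median, the exception being Fosb in COH.

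The pileup divided by the fold was high at some members and nearer the median at others. It lay above the list's median at all 5 COH member peaks, from 3.08 to 5.63 against 2.86, and at all 5 control member peaks, from 4.44 to 7.71 against 3.21. In control, Jund ranked 117 and Egr1 136 of 3078 by this measure, and in COH they ranked 137 and 185 of 1711. The COH peaks of Nr4a1, Nr4a3 and Fosb ranked only 570, 630 and 704. The measure is built from the folds and pileups above, so it is no separate finding. Peaks within 1000 bp of a start had medians of 3.02 in COH and 3.37 in control, and 5′ UTR peaks 2.85 and 3.17. All 10 member values also exceeded the median of peaks near starts in their own list. The formula of the fold is not stated by the authors, so the ratio is a description only.

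**Figure D3:**
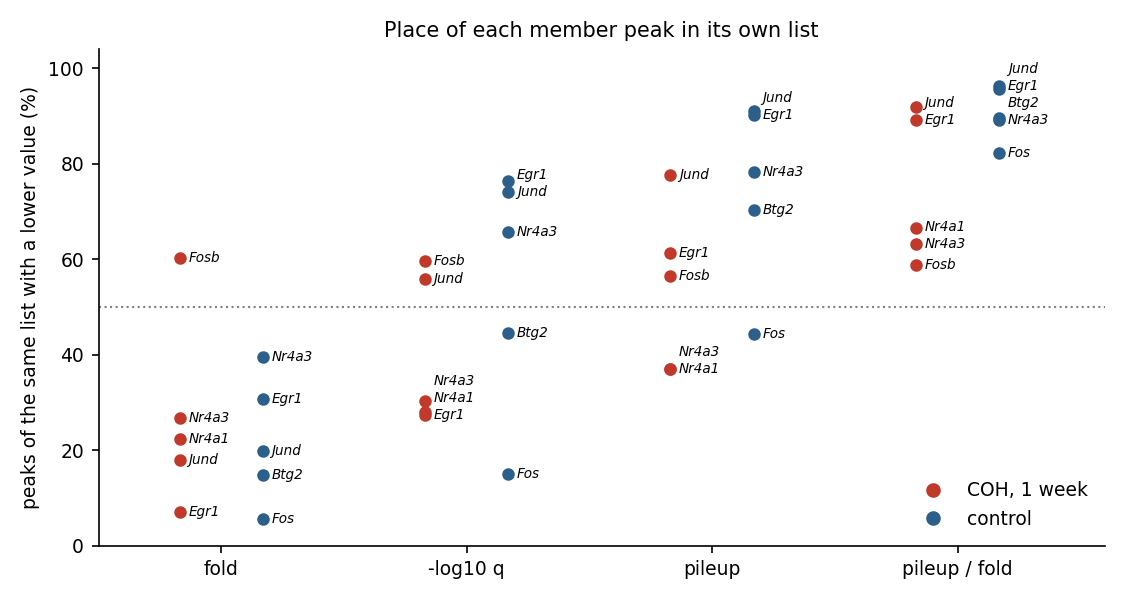
Percent of peaks of the same list with a lower value than each member peak, for the fold, the -log10 q, the pileup and the pileup divided by the fold. COH points stand left of control points and the dotted line marks 50%. All 10 points lie above the line for pileup divided by fold, and 1 of 10, Fosb in COH, for the fold.

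Jun, the AP-1 subunit phosphorylated by JNK kinases, and Junb had no peak in either list, so the lists give no position for them. Among the 5 protein-coding genes on each side of Jun in the RefSeq order of GRCm38.p6, none had a COH peak and 2, Fggy and Hook1, had a control peak. Around Junb, Hook2 had a COH peak and Tnpo2 a control peak. For the 7 members with a start in the lists, peaks of other genes lay within 100 kb of 3 of them. Both lists had a peak near Fosb at the promoter of Opa3, a mitochondrial protein gene, 82.0 kb downstream of the Fosb start in COH and 81.6 kb in control. Near Egr1 both lists had peaks at Etf1, a translation termination factor, and at Kdm3b, a histone demethylase. Those of Etf1 overlapped and those of Kdm3b did not. Near Jund there was a COH peak in an exon of Gdf15, which encodes a stress-induced cytokine, and a control peak in an intron of Mast3.

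Of 30 genes that act upstream of the immediate early genes, 13 had a peak in at least 1 list. A COH peak was assigned to 9 (30.0%) and a control peak to 12 (40.0%). Both lists named 8: Creb1, Crebbp, Ep300, Mapk8, Mapk9, Mef2a, Rps6ka1 and Rps6ka4. Over all protein-coding genes the shares were 5.38% and 10.8%, and 3.53% had a peak in both. Several of these regulators had been seen in earlier results of the same lists, so the shares are no independent evidence. The Rps6ka1 peaks were distal intergenic, at -22.94 kb from its start in COH and -22.87 kb in control. Ep300 and Crebbp, coactivators with acetyltransferase activity, had overlapping promoter peaks, with folds of 6.40 and 6.70 in COH and 6.81 and 5.71 in control. Mapk8, a JNK kinase that phosphorylates Jun, had folds of 6.59 in COH and 6.78 in control. Mapk9, another JNK kinase, had folds of 4.97 in COH and 6.24 in control. Mrtfa, a cofactor of the serum response factor, was the member in COH only, and Crtc2, Mef2d, Mrtfb and Rps6ka5 were those in control only. Rps6ka4, which encodes a kinase that phosphorylates CREB and histone H3, had distal peaks at 27.4 and 78.1 kb from its start in each list. These had the highest folds of the group, 16.0 and 14.7 in COH and 18.4 and 19.3 in control, and are singled out after their values were seen.

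Other immediate early genes had a peak in COH for 5 of 47 (10.6%) and in control for 14 (29.8%). Bhlhe40, Homer1, Per1 and Tob1 had overlapping peaks in both lists, Klf10 had one in COH only, and Btg1, Ccn2, Gadd45g, Ier5, Klf2, Klf4, Plk2, Ptgs2, Rgs2 and Tiparp in control only. The peaks assigned to Klf4 and Ptgs2 were distal intergenic, at -118.6 and -37.15 kb from the start. Bhlhe40, a transcriptional repressor tied to the clock, had a promoter peak of pileup 48 and fold 6.96 in COH, and of pileup 34 and fold 5.22 in control. Tob1, a relative of Btg2, had one of pileup 42 and fold 6.16 in COH, and of pileup 34 and fold 5.40 in control. Per1, a repressor of the circadian clock, had one of pileup 23 and fold 5.11 in COH, and of pileup 27 and fold 5.54 in control. At Homer1, a scaffold protein of synapses, the shared 5′ UTR peak had a pileup of 15 in COH and 17 in control. The pileup was thus higher in COH at 2 of these 4 shared sites and lower at the other two. Plk2, a kinase induced by synaptic activity, had a promoter peak of fold 7.07 in control. Of the remaining Fos and Egr family genes on the list (Fosl1, Fosl2, Egr2, Egr3 and Egr4) and Nr4a2, none had a peak in either list. The same holds for most protein-coding genes.

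Among 18 partners of AP-1 and related bZIP factors, 2 (11.1%) had a COH peak and 4 (22.2%) a control peak. Over all protein-coding genes the shares were 5.38% and 10.8%. With so few genes, chosen with earlier results known, nothing is read from these shares. Atf4, a factor of the integrated stress response, and Atf7 had overlapping promoter peaks, with folds of 6.26 and 7.94 in COH and 4.73 and 8.63 in control. Ddit3, which encodes the stress factor CHOP, and Batf2 had promoter peaks in control only, with folds of 3.07 and 3.86.

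**Figure D4:**
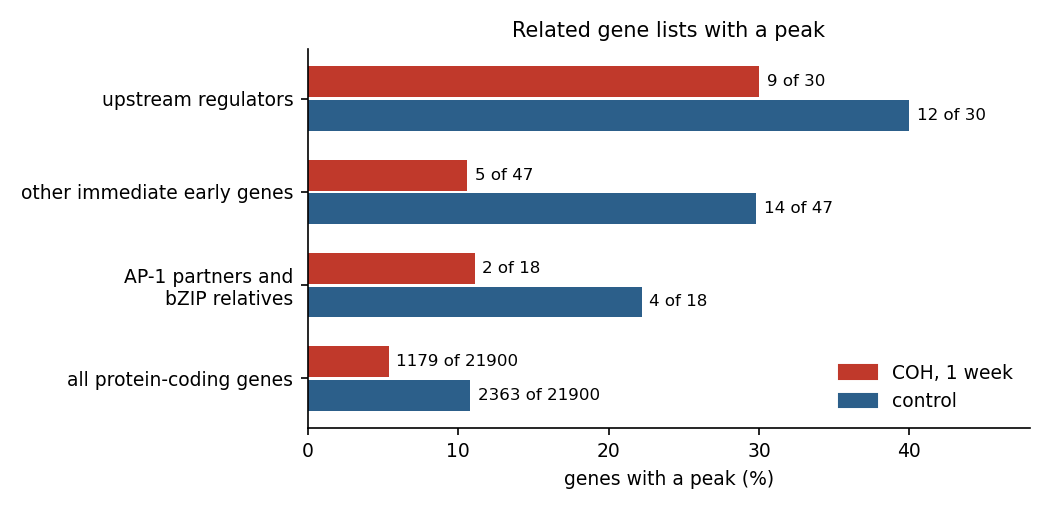
Percent of the genes of 3 related lists, and of all protein-coding genes, that have a peak, with COH bars above control bars and the counts beside them. In each list the control share is the higher one, as it is over all protein-coding genes (5.38% in COH and 10.8% in control).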

How the data were processed

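CUT&Tag libraries from nuclei of the retina were made with a Rac1 antibody and 15 PCR cycles, per the labels. The submitters' processing notes name cutadapt 1.9.1, Bowtie2 and the build mm9, without role or order. For the peak caller and any background library, the step is not given in the sources used here. Peaks are listed per library. The pileup (a signal of unstated scaling), the fold enrichment (a ratio) and the p and q values (as -log10) are those the authors deposited, and the headings of the last 2 columns hold a spreadsheet error, so these were read from their place and values. Positions, annotation classes, genes and distances (other values) are the authors', per the file headers. Gene starts in the lists are not those of the RefSeq table of GRCm38.p6, and the build of the lists is not settled, so that table served for symbols, synonyms, gene order and gene lengths, and its promoter windows are quoted in their own build. Lengths of peaks were counted from start to end inclusive. Depth is unknown because the lists give no read totals.

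The peaks of 9 genes were described with pandas 2.3.3 and scipy 1.17.1, and no test between conditions was made with 1 library per group. Peaks overlapped if they shared at least 1 bp, and this step recovered 500 of 500 pairs planted in simulated lists of 3078 and 1711 peaks. The planted pairs were built to overlap and the other peaks to stay apart, so this checks the code only. The genes and related lists were chosen with earlier results of these data known. All 9 genes are named, and from each related list every gene with a peak, with values for the 4 with promoter peaks of highest fold in either list. The values of Homer1 and Rps6ka4 and the distances of Rps6ka1, Klf4 and Ptgs2 are given outside this rule, after they had been seen. The CRE core and the TATA box were added to the motif list after the windows had been seen. Alternatives were other limits of strength, distance and overlap.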

Additional observations from a re-analysis of the deposited data

How the results depend on the processing

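With 1 library per group and lists limited to peaks that passed the caller, none of the counts has a replicate check. Of 25 alternative counts, 14 stayed within 1.5 times the count reported, and these include all limits on the distance to the start. The counts depended most on peak strength. Among peaks at or above the median fold of their list, 1 gene (Fosb) had a COH peak, 0 had a control peak and 0 were in both lists, and 0 of the COH and 0 of the control member peaks overlapped. With the control list reduced to its 1711 peaks of highest fold, 0 genes had a control peak and 0 were in both lists. This rests on the choice of the fold. By -log10 q the control peaks of Egr1, Jund, Nr4a3 and Btg2 ranked 728, 798, 1057 and 1703 of 3078, and that of Fos 2613. Where the -log10 q had to reach 5, 2 genes (Fosb and Jund) had a COH peak and 1 (Jund) was in both lists, while 4 had a control peak. With a reciprocal overlap of 50%, 1 COH member peak and 1 control member peak overlapped, those of Jund. No paired analysis was possible because each group has 1 library and no test was made.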

Other observations

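The place of a peak relative to a start depends on the gene model in the lists. The lists give Egr1 a length of 5162 bp, and the RefSeq gene of GRCm38.p6 is 3750 bp long. Counted back from the 3′ end in the lists, the Egr1 peak reached from 4503 to 3933 bp in COH and from 4970 to 3666 bp in control, so most of it lay beyond the length of the RefSeq gene. For Jund the lists give 1667 bp and RefSeq 2878 bp, and its peaks reached from 2160 to 1669 bp in COH and from 2120 to 1702 bp in control, within the length of the RefSeq gene. Whether the 3′ ends are the same in the 2 annotations was not tested. The lengths of Fos were 3384 bp in the lists and 3385 bp in RefSeq, and those of Btg2 3951 and 4291 bp.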
